A study of Homo sapiens with 8 samples.

Results

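The genes followed here set how blood clots on the vessel wall and how clots are cleared: VWF, THBD, PROCR, TFPI, TFPI2, F8, F3, PLAT and PLAU. They were chosen by name, as the rows of the deposited table with those 9 symbols, out of 30386 genes. Each symbol matched 1 row. All 9 passed the filter on low counts.

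Messenger RNA was sequenced in cells made from the established human iPSC (induced pluripotent stem cell) line WTC-TJP1, differentiated to endothelial cells (iEC, 4 samples) or to retinal endothelial cells (iREC, 4 samples). Both groups were collected at passage 1 and carry the sample letters C, D, E and F. The cell type label is the same for both groups, and the sample group label separates them. The labels give no medium or treatment, and they do not explain the TJP1 part of the line's name. Every sample comes from 1 line. Nothing says that the letters mark separate cultures, so p-values measure the spread between these samples, which may be technical.

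Clotting begins when tissue factor, the product of F3, meets plasma factors, and TFPI and TFPI2 encode Kunitz-type inhibitors of proteases in that step and of plasmin. Endothelium restrains thrombin through thrombomodulin (THBD) and the endothelial protein C receptor (PROCR), which together promote activation of protein C. It also stores von Willebrand factor (VWF), the platelet adhesive protein that carries factor VIII (F8), and it secretes tissue-type (PLAT) and urokinase-type (PLAU) plasminogen activators, which start the breakdown of fibrin.

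Promoter stretches are shown for 4 members, 3 that passed the test below (PROCR, PLAU, TFPI) and F3, whose iREC samples lay far apart. RefSeq promoter entries (GRCh38.p14) matched 6 of the 9 members (PROCR, TFPI, TFPI2, F8, F3 and PLAU); VWF, THBD and PLAT had none. Each run is the strand of the gene, 5′ to 3′, from the 250 bases before the RefSeq start, without bases that GENCODE release 29 places in an exon. The RefSeq starts used for TFPI (187554435) and PLAU (73911132) lie well inside the annotated genes. The annotated 5′ ends of these genes are at 187565760 and 73909177. Capitals mark matches to TGANTCA, the AP-1 site, or to TATAAA, the TATA box, on either strand.
PROCR (chr20:35171822-35172071, plus strand): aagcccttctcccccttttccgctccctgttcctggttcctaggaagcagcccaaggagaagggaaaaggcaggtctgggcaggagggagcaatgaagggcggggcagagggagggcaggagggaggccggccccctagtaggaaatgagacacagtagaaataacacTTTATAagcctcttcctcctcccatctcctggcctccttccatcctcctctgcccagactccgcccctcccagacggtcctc
PLAU (chr10:73910882-73911103, plus strand): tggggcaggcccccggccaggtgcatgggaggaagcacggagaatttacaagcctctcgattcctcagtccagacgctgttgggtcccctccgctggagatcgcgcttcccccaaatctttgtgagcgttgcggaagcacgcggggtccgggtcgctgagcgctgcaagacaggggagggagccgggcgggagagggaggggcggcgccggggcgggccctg
TFPI (chr2:187554493-187554685, minus strand): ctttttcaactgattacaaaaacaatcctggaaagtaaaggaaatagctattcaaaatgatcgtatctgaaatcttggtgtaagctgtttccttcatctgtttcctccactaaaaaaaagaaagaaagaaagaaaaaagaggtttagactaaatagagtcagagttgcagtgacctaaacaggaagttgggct
F3 (chr1:94541801-94542009, minus strand): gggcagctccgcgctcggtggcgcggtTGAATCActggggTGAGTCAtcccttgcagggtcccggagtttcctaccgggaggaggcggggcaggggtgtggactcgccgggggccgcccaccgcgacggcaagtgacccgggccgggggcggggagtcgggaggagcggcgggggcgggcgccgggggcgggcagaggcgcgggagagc

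Matches were counted on both strands of the whole 250 bases, so some fall outside the runs printed. F3 held 2 AP-1 matches and 1 TATA box match. AP-1 letters occurred in 6.57% of all 35116 windows of this length in the table, and TATA box letters in 10.7%. PROCR held a TATA box match and no AP-1 match, and PLAU and TFPI held neither. PLAU has a further RefSeq start, whose window also held neither. SP1 letters (GGGCGG, 42.6% of windows) were found in F3 (4), PLAU (3) and PROCR (2), and not in TFPI or the further PLAU window. KLF letters (CACCC, 54.7%) were found only in F3 (2) among these 4 windows. The ETS core (GGAA, 92.7%) was in all of them, with 8 matches in PROCR, 6 in TFPI, 4 in PLAU and 1 in F3. The further PLAU window held 3 ETS core matches. GATA letters (AGATAA, 9.17%) and E-box letters (CACGTG, 6.34%) were in none (0). Matches to different motifs could overlap. The PROCR, PLAU and TFPI windows had only the ETS core in common among the motifs searched, and a letter match describes the sequence alone.

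The iEC libraries held 14877502 to 16971865 counts and the iREC libraries 13739364 to 15987839. Counts are given as CPM, counts scaled to a common library size, on totals adjusted by the TMM method, and 3 counts, taken as the floor of detection, came to between 0.178 and 0.215 CPM. Differences are log2 fold changes of iREC over iEC from edgeR's quasi-likelihood test, and "called" stands for an adjusted p below 0.05, adjusted over all genes tested. Endothelial markers were detected in both groups, with a summed level over 10 of them of 7466 to 9358 CPM in iEC samples and 3880 to 9030 CPM in iREC samples. Of these 10, 5 were called lower (PECAM1, CDH5, ROBO4, ESAM and EGFL7), 2 higher (TEK and CLDN5) and 3 were not called. PECAM1 fell from 2233 to 754 CPM in the mean (adjusted p by edgeR 0.000632). CDH5 fell from 1351 to 799 CPM (0.0298, edgeR), a call lost with the replicate block (0.0803) and without iEC D (0.06003), iEC E (0.0608), iEC F (0.0667) or iREC D (0.0785). Of 8 markers of the retinal and brain endothelial barrier, 7 were tested. Their sum over all 8 was 348 to 449 CPM in iEC and 475 to 918 CPM in iREC. Most of it was CLDN5, which is also in the endothelial list. CLDN5 stood at 309 to 405 CPM in iEC and 357 to 849 CPM in iREC. SLC2A1, ABCB1, CLDN5 and OCLN were called higher and SLC38A5 lower, while MFSD2A and LEF1 were not called. The groups overlapped in CLDN5 (adjusted p by edgeR 0.0490) and ABCB1 (0.0418). None of these barrier calls was tried under other settings. SLCO1C1, not tested, was at 0 in all iEC samples and in iREC C and F. In iREC F, the summed levels of 10 mural and mesenchymal markers (4479 CPM) and of 7 epithelial markers (4924 CPM) stood above those of the other iREC samples, at 619 to 1237 and 302 to 1118 CPM.

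Of the 9 members, 5 were called. TFPI and PLAT were higher in iREC, and THBD, PROCR and PLAU were lower. Over all 15330 genes tested, 25.0% were called, 13.2% as higher and 11.7% as lower. The groups did not overlap in 3 members, PROCR, PLAT and PLAU, where 29.1% of all genes tested did not overlap. The median log2 fold change of the members was 0.69, against 0.020 over all genes tested, and the median size of change was 1.42 against 0.39. The members were chosen with earlier results of these data known, so these comparisons with all genes are descriptive only. PROCR, TFPI, PLAT and PLAU were called in each of the 18 fits made. In bulk RNA, fewer cells of a type and less RNA per cell cannot be told apart.

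**Figure D1:**
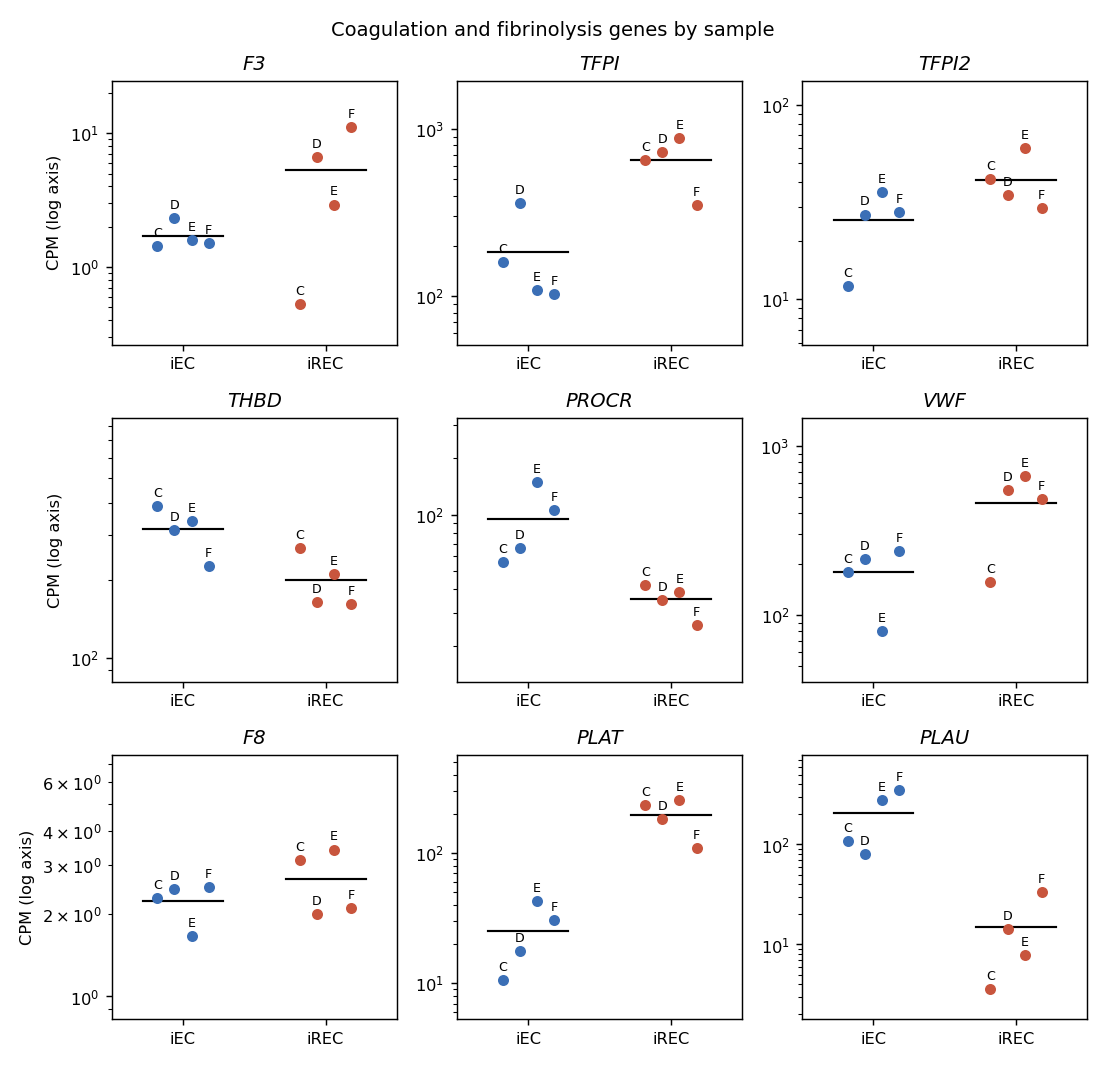
CPM on log axes (each panel has its own range) of the 9 genes in the 4 iEC (blue) and 4 iREC (red) samples, lettered C to F, with the group mean as a black bar. PROCR, PLAT and PLAU show no overlap between groups, while in F3 and VWF iREC C lies apart from the other iREC samples, at 0.523 and 157 CPM.

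The plasminogen activators showed the largest differences among the members, in opposite directions. PLAU (ENSG00000122861, chromosome 10, 73909177 to 73917497, GRCh38) encodes urokinase, the activator that acts at the cell surface. Its CPM were 109, 80.5, 281 and 355 in iEC C to F in order, and 3.60, 14.4, 7.88 and 33.4 in iREC C to F. Every iREC sample was below every iEC sample, and each group was itself widely spread, 4.40-fold in iEC and 9.28-fold in iREC. PLAU fell from 206 ± 133 to 14.8 ± 13.2 CPM (mean ± SD of 4), for which edgeR gave a log2 fold change of -3.80 (SE 0.74) and an adjusted p of 0.00538. The antisense gene C10orf55 shares 916 of the 2950 exon bases of PLAU and had 60 counts in total, against 13543 for PLAU. How reads in the shared bases were counted is not known, so PLAU counts are uncertain if strand was not used in counting.

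PLAT (ENSG00000104368, chromosome 8, 42175233 to 42207724) encodes tissue-type plasminogen activator, which works on fibrin. Its CPM were 10.7, 17.6, 42.8 and 30.4 in iEC C to F in order, and 233, 184, 256 and 109.6 in iREC C to F. The lowest iREC sample, F, still lay above the highest iEC sample, E. PLAT rose from 25.4 ± 14.2 to 196 ± 64.8 CPM (mean ± SD of 4), for which edgeR gave a log2 fold change of 2.95 (SE 0.44) and an adjusted p of 0.00138.

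Levels of the pair were set against each other in FPKM, the authors' counts per gene length, since these can be compared between genes. PLAU exceeded PLAT in all 4 iEC samples, by 22.9-, 10.2-, 14.7- and 26.2-fold in C, D, E and F. PLAT exceeded PLAU in all 4 iREC samples, by 28.9-, 5.69-, 14.5- and 1.46-fold in C, D, E and F. The main activator transcript per length was thus PLAU in iEC and PLAT in iREC. The sum of both was 73.8 ± 48.0 FPKM in iEC and 33.98 ± 5.43 FPKM in iREC (SD, n = 4), and the groups overlapped, since iEC D was at 29.4.

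Within iREC, PLAU and F3 followed the summed level of the epithelial marker list, though not every gene in it. Genes outside that list did so too. The summed level of that list was 302, 1118, 422 and 4924 CPM in iREC C to F, so that the samples stood in the order C, E, D, F in the list, in PLAU and in F3. In iEC, the list was at 447, 391, 674 and 1174 CPM in C, D, E and F, and PLAU stood in the same order, D, C, E, F, while F3 did not. KRT8 and KRT18 made up most of the epithelial sum in iREC F, at 3025 and 1538 CPM. Both were also present in iEC, at 145 to 598 and 228 to 465 CPM. CDH1 was at 0 in iREC C and at 81.6 CPM in F. EPCAM, not called, was at 0.720, 1.64, 0.489 and 3.28 CPM in iREC C to F. EPCAM and KRT18 stood in the order E, C, D, F. CLDN4, not tested, was highest in iREC C (0.654 CPM) and at 0 in F. The mural and mesenchymal list was at 1011, 1237, 619 and 4479 CPM in iREC C to F, and no gene of either list was at 0 in all 8 samples. Within the mural and mesenchymal list, PDGFRB, COL1A1, COL3A1, LUM and DCN also stood in the order C, E, D, F in iREC. ACTA2, COL1A2, TAGLN, RGS5 and CNN1 stood in other orders. LIN28A, a pluripotency marker, had the order C, E, D, F as well, so this order was not particular to epithelial genes. TFPI, TFPI2, PLAT, PROCR and THBD were lowest among the iREC samples in F, where the endothelial list was also lowest, at 3880 CPM. THBD was almost as low in iREC D, at 165 CPM against 162 in F. VWF was lowest in iREC C, at 157 CPM against 485 in F, and F8 was lowest in iREC D. The part of these other cell types in the members' levels was not tested. Without iREC F, the log2 fold change was -4.58 for PLAU, 3.14 for PLAT and 2.04 for TFPI, further from 0 than with it, and -1.29 for PROCR and -0.57 for THBD, nearer to 0.

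**Figure D2:**
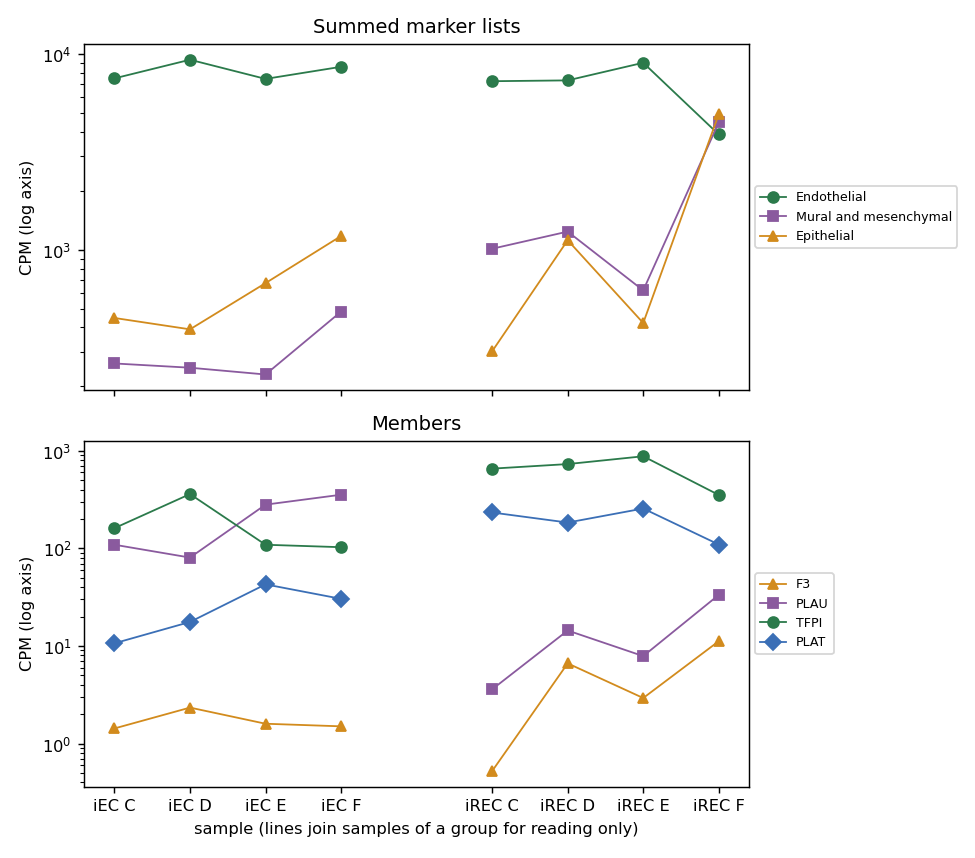
Summed CPM of 3 marker lists (top) and CPM of F3, PLAU, TFPI and PLAT (bottom), both on log axes, in each of the 8 samples. In iREC F the mural and mesenchymal (4479 CPM) and epithelial (4924 CPM) lists exceed the endothelial list (3880 CPM), and F3 and PLAU are at their highest for iREC while TFPI and PLAT are at their lowest.

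Among the Kunitz-type inhibitors, TFPI (ENSG00000003436, chromosome 2, 187464230 to 187565760), the inhibitor of tissue factor with factor VIIa, was higher in iREC. Its CPM were 161, 360, 109.0 and 103 in iEC C to F in order, and 656, 731, 878 and 353 in iREC C to F. The groups overlapped through 1 pair, as iEC D lay just above iREC F. TFPI rose from 183 ± 121 to 655 ± 221 CPM (mean ± SD of 4), for which edgeR gave a log2 fold change of 1.84 (SE 0.44) and an adjusted p of 0.0141. Without iEC D the log2 fold change was 2.39.

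TFPI2 (ENSG00000105825, chromosome 7, 93885396 to 93890991), whose product inhibits plasmin and other proteases in the matrix, was not called. Its CPM were 11.7, 27.3, 35.5 and 28.2 in iEC C to F in order, and 41.4, 34.3, 60.3 and 29.3 in iREC C to F. iREC C and E were above all iEC samples, and iREC D and F lay within the iEC range. The log2 fold change was 0.69 with an SE of 0.33, and edgeR gave an adjusted p of 0.167, with a 95% interval from -0.068 to 1.44. In FPKM, TFPI exceeded TFPI2 by 3.15- and 3.02-fold in iEC C and D and by 2.75- to 4.88-fold in iREC. In iEC E and F it was below TFPI2, at 0.703 and 0.835 of its level.

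Both members that act on protein C, PROCR and THBD, were called lower in iREC, and THBD lost its call in 9 of the 18 fits. PROC, the gene of protein C itself, was not tested, at 0 in all iEC samples and 0.065 to 0.524 CPM in iREC. PROCR (ENSG00000101000, chromosome 20, 35172073 to 35216240), the receptor that presents protein C, had 55.8, 66.6, 149 and 106 CPM in iEC C, D, E and F. In iREC C to F it had 42.2, 34.9, 38.8 and 25.6 CPM. All iREC samples were below all iEC samples, and most of the spread lay in iEC, where E was highest. PROCR fell from 94.5 ± 42.4 to 35.4 ± 7.16 CPM (mean ± SD of 4), for which edgeR gave a log2 fold change of -1.42 (SE 0.31) and an adjusted p of 0.00921. The opposite-strand gene AL356652.1, not analysed here, shares 12.85% of the exon bases of PROCR.

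THBD (ENSG00000178726, chromosome 20, 23045633 to 23049741), a gene of 1 exon, encodes the thrombin receptor that turns thrombin towards protein C. Its CPM were 388, 315, 340 and 227 in iEC C to F in order, and 267, 165, 212 and 162 in iREC C to F. The groups overlapped, since iREC C was above iEC F. THBD fell from 318 ± 67.7 to 201 ± 49.5 CPM (mean ± SD of 4). For this, edgeR gave a log2 fold change of -0.66 (SE 0.21) and an adjusted p of 0.0484. That fold change was the smallest in size of the 5 called members, and that adjusted p the largest. The call was lost without iEC C (adjusted p 0.105), iEC D (0.0698), iEC E (0.0993), iREC D (0.134), iREC E (0.0879) or iREC F (0.0889). It was also lost under upper quartile scaling (0.0635), library size only (0.0578) and the stricter filter (0.0527).

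Summed over THBD, PROCR, TFPI and TFPI2, the 4 genes whose products restrain clotting or plasmin, the level was 157 ± 23.3 FPKM in iEC and 139 ± 32.7 FPKM in iREC (SD, n = 4). The 2 ranges overlapped, from 141 to 191 and from 94.8 to 168 FPKM. TFPI made up 4.81% to 19.6% of that sum in iEC and 31.5% to 45.9% in iREC. The sums and ratios of FPKM were chosen after their values were seen.

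F3 (ENSG00000117525, chromosome 1, 94529225 to 94541800), the tissue factor gene and the start of the extrinsic route, was low in both groups and not called. Its CPM were 1.43, 2.34, 1.60 and 1.503 in iEC C, D, E and F, from 21 to 37 counts, and 0.523, 6.64, 2.93 and 11.2 in iREC C, D, E and F, from 8 to 171 counts. iREC C was the lowest of all 8 samples and the other iREC samples were above all iEC samples, a 21.4-fold range within iREC against 1.64-fold in iEC. The log2 fold change was 1.63 with an SE of 0.71, and edgeR gave an adjusted p of 0.128. Without iREC C it was 2.002 and called (adjusted p by edgeR 0.0153), and without iREC F it was 0.96 (0.316). THBD exceeded F3 in every sample, by 94.3- to 190-fold in FPKM in iEC and by 357-, 17.4-, 50.5- and 10.1-fold in iREC C to F.

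VWF (ENSG00000110799, chromosome 12, 5948874 to 6124770) lay just outside the threshold. Its CPM were 179, 215, 80.4 and 239 in iEC C to F in order, and 157, 545, 663 and 485 in iREC C to F. iREC D, E and F were above all iEC samples, and iREC C was below 3 of the 4. The log2 fold change was 1.37 with an SE of 0.45, and edgeR gave an adjusted p of 0.0506, with a 95% interval from 0.37 to 2.38. Without iREC C it was 1.66 and called (adjusted p by edgeR 0.00886), and it was called in 6 of the 9 alternatives that kept all samples. The pseudogene VWFP1, a partial copy, had 0 to 4 counts per sample. iREC C was the lowest iREC sample in both VWF and F3, and also in PLAU, while it was the highest in THBD and PROCR.

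F8 (ENSG00000185010, chromosome X, 154835788 to 155026940), encoding the clotting cofactor carried by VWF, was the lowest member per length in both groups. Its CPM lay between 1.66 and 2.51 in iEC samples and between 1.998 and 3.42 in iREC samples, on 28 to 56 counts. iREC C and E were above all iEC samples and iEC E was below all iREC samples, while the other samples were intermixed. The log2 fold change was 0.26 with an SE of 0.30, and edgeR gave an adjusted p of 0.561, with a 95% interval from -0.41 to 0.93. FUNDC2, on the opposite strand with 3654 counts in total, shares 161 exon bases with F8, which had 301, so F8 counts are uncertain if strand was not used in counting. VWF exceeded F8 by 51.3- to 101-fold in FPKM in iEC and by 52.8-, 288-, 205- and 245-fold in iREC C to F.

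**Figure D3:**
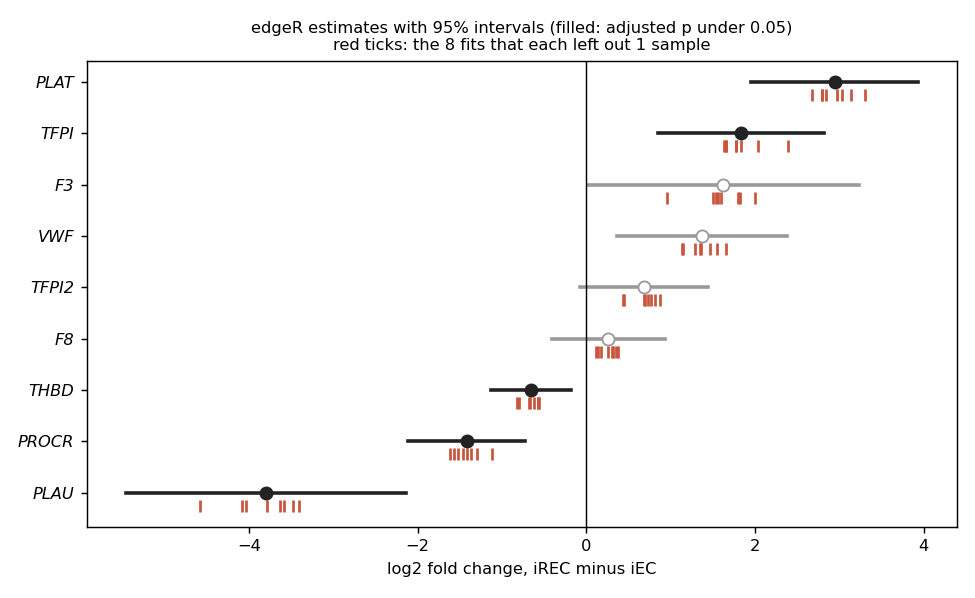
log2 fold changes (iREC minus iEC) of the 9 genes from edgeR with 95% intervals, filled where called, and red ticks for the 8 fits that each left out 1 sample. PLAT at 2.95 and PLAU at -3.80 stand at the ends, and no leave-one-out value of any member crosses 0.

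By mean FPKM, the iEC order was THBD (76.5 ± 15.0), PLAU (70.0 ± 46.3), PROCR (55.5 ± 25.1), VWF (17.1 ± 6.88), TFPI (15.4 ± 10.01), TFPI2 (9.53 ± 3.74), PLAT (3.82 ± 2.15), F3 (0.592 ± 0.139) and F8 (0.201 ± 0.037) (SD, n = 4). The first 3 overlapped one another in their samples, as did VWF, TFPI and TFPI2, and PLAT overlapped TFPI2. F3 and F8 each stood clear of the gene above. In iREC the order was TFPI (54.8 ± 18.3), THBD (48.2 ± 11.7), VWF (43.7 ± 20.4), PLAT (29.02 ± 9.49), PROCR (20.5 ± 4.06), TFPI2 (15.1 ± 4.89), PLAU (4.96 ± 4.44), F3 (1.83 ± 1.61) and F8 (0.238 ± 0.064) (SD, n = 4). Each gene's samples there overlapped those of its neighbours in the order. These lengths are those of all annotated exons together, 11714 bases for TFPI and 1696 for PROCR, so genes with long rare exons are understated.

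**Figure D4:**
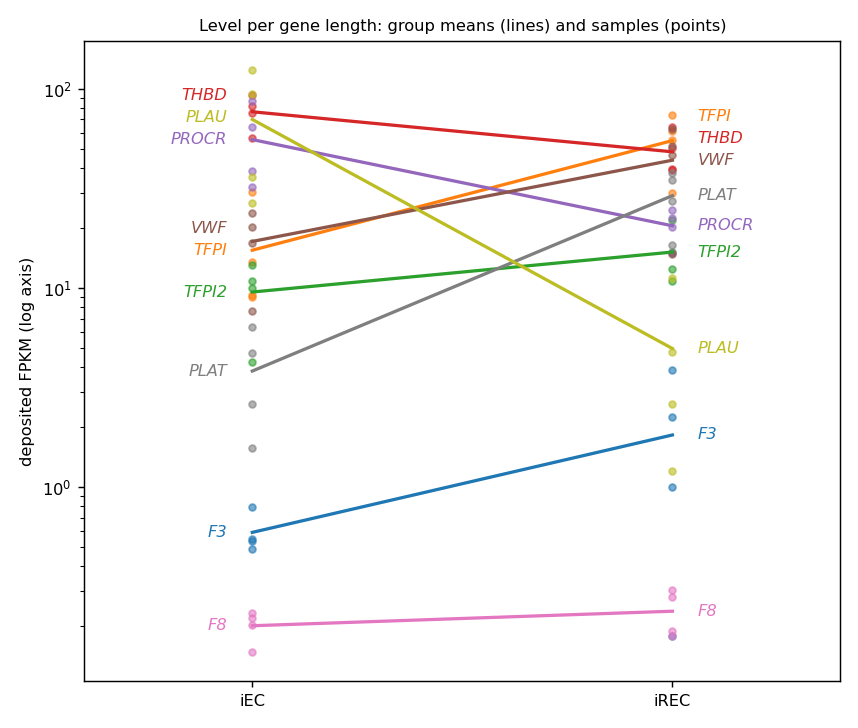
Deposited FPKM on a log axis for the 9 genes, with group means joined by lines and single samples as points. PLAU drops from 70.0 to 4.96 and PLAT climbs from 3.82 to 29.02, so their lines cross, as do those of TFPI (15.4 to 54.8) and THBD (76.5 to 48.2).

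A further 73 genes of the clotting system and its surroundings were followed in 8 lists. Of these, 62 were in the table analysed here, 51 passed the filter and 29 were called, 15 higher and 14 lower in iREC, beside 25.0% of all genes tested. The median log2 fold change of the 51 was 0.037. These lists, too, were chosen with earlier results of these data known. Plasma coagulation factors were near the floor: of 6 found among 14, only F12 was tested, at 0.720 ± 0.099 and 1.199 ± 0.639 CPM, and it was not called (adjusted p by edgeR 0.276). F2, F5, F7, F10 and KLKB1 did not exceed 17 counts in any sample. Among 5 hepatocyte markers found, ALB, APOA1 and AFP were at most 3, 7 and 18 counts. TTR was called higher, at 15.0 to 73.0 CPM in iREC against 0 to 0.195 CPM in iEC, and APOB was called lower, at 17.2 ± 7.89 CPM in iEC and 3.25 ± 1.98 CPM in iREC (adjusted p by edgeR 9.64e-05 and 0.00809). Of 6 megakaryocyte and platelet markers found, PF4 did not exceed 11 counts.

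The fibrinolysis genes around PLAU and PLAT moved in both directions. Of 9 tested, 2 were higher, 2 lower and 5 not called (median log2 fold change -0.55). PLAUR, the urokinase receptor, had 104, 155, 161 and 114 CPM in iEC C to F in order, then 21.4, 31.6, 20.7 and 23.3 CPM in the same order of iREC, with no overlap. It fell, with -2.46 (SE 0.20) as its log2 fold change and an adjusted p of 7.25e-05 by edgeR. SERPINB2, a further inhibitor of urokinase, fell from 10.3 ± 12.5 to 0.696 ± 0.639 CPM, and iEC E held 28.9 CPM. Its log2 fold change, -3.86, was -2.54 without iEC E and -4.73 without iREC E. That call was lost with limma-voom (adjusted p 0.0656) and, by edgeR, without iREC D (0.0504). SERPINE2, a heparin-dependent inhibitor of thrombin and plasminogen activators, rose from 25.4 ± 12.3 to 66.4 ± 32.4 CPM (means ± SD of 4 samples; by edgeR, adjusted p 0.0381), a call lost without iEC E (0.0790), iEC F (0.0857), iREC C (0.0547), iREC D (0.0679) or iREC F (0.0740). THBS1, thrombospondin, rose from 1480 ± 302 to 4460 ± 1540 CPM (means ± SD of 4 samples; by edgeR, adjusted p 0.00359).

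Among genes of the anticoagulant system, 1 of 8 tested was higher, 4 were lower and 3 were not called (median log2 fold change -0.54). ENTPD1, the ectonucleotidase that removes ATP and ADP, rose from 24.2 ± 3.20 to 68.5 ± 19.6 CPM, while NT5E, which acts after it to form adenosine, fell from 481 ± 142 to 246 ± 41.6 CPM (means ± SD of 4 samples; by edgeR, adjusted p 0.00101 and 0.0140). A2M, a broad protease inhibitor, fell from 236 ± 41.5 to 22.2 ± 10.5 CPM (adjusted p by edgeR 0.000105). SERPIND1, heparin cofactor II, fell from 5.23 ± 3.43 to 0.307 ± 0.235 CPM (adjusted p by edgeR 0.00462). SERPIND1 was at the floor in iREC C (0.196 CPM) and below it in iREC F (0.066 CPM), and iEC C held only 1.04 CPM. The stricter filter left it untested. PROS1, encoding protein S, the cofactor of activated protein C, fell from 43.5 ± 14.2 to 24.2 ± 4.72 CPM (means ± SD of 4 samples; by edgeR, adjusted p 0.0316). The PROS1 call was lost without iEC C (adjusted p 0.0551), iEC D (0.0653), iEC F (0.0510), iREC C (0.0739), iREC D (0.0580) or iREC F (0.0604).

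All 4 protease-activated receptors, which sense thrombin and other proteases at the cell surface, were called, 2 in each direction. F2R, the main thrombin receptor of endothelium, had 181, 202, 275 and 379 CPM in iEC C to F in order, then 1867, 1260, 1576 and 866 CPM in the same order of iREC. It rose, with 2.42 (SE 0.30) as its log2 fold change and an adjusted p of 0.000555 by edgeR. F2RL2 rose from 7.01 ± 2.26 to 207 ± 95.4 CPM (mean ± SD of 4), for which edgeR gave a log2 fold change of 4.88 (SE 0.38) and an adjusted p of 5.47e-05. F2RL1 and F2RL3 were low and fell, from 10.1 ± 3.53 to 4.96 ± 1.85 CPM and from 5.90 ± 2.36 to 0.992 ± 0.774 CPM (means ± SD of 4 samples; by edgeR, adjusted p 0.0481 and 0.0381). F2RL1 lost its call in 3 of the 9 alternatives with all samples and without iEC D (adjusted p 0.119), iEC E (0.0597), iEC F (0.0881), iREC C (0.105), iREC E (0.115) or iREC F (0.0857). F2RL3 lost it without iEC C (0.0826), iEC D (0.0672), iEC E (0.0920), iREC C (0.0805) or iREC D (0.0834).

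The Weibel-Palade body, the endothelial granule that stores VWF, had 12 genes listed, all tested, with 4 higher, 3 lower and 5 not called (median log2 fold change -0.022). SELP, encoding P-selectin, the adhesion receptor stored beside VWF, had 0.065, 0.758, 0 and 0.429 CPM in iEC C to F in order, then 39.7, 69.8, 80.7 and 21.4 CPM in the same order of iREC. It rose, with 7.39 (SE 0.76) as its log2 fold change and an adjusted p of 0.000216 by edgeR, on 0 to 12 iEC counts, and without iEC D the log2 fold change was 8.35. MYRIP, a linker of these granules to actin, rose from 0.621 ± 0.345 to 23.3 ± 15.4 CPM, and EDN1, endothelin, from 167 ± 33.1 to 357 ± 141 CPM (means ± SD of 4 samples; by edgeR, adjusted p 0.00064 and 0.0217). The EDN1 call was lost without iEC D (0.0538), iEC E (0.0650) or iREC E (0.0527). ANGPT2, another stored ligand, fell from 1777 ± 234 to 26.5 ± 5.07 CPM (adjusted p by edgeR 1.49e-06), and CXCL8 from 507 ± 268 to 51.0 ± 34.3 CPM (0.00705).

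Of 6 genes for the making and cutting of clotting proteins, 1 was higher, 1 lower and 4 not called (median log2 fold change -0.088). GGCX, the vitamin K-dependent carboxylase, rose from 59.0 ± 5.50 to 118 ± 31.7 CPM. MCFD2, which helps factor VIII leave the endoplasmic reticulum with LMAN1, fell from 464 ± 104 to 211 ± 18.4 CPM (means ± SD of 4 samples; by edgeR, adjusted p 0.00421 and 0.00118). LMAN1 itself was not called (log2 fold change -0.032, SE 0.12; adjusted p by edgeR 0.878). ADAMTS13, the protease that cuts VWF, was 2.66 ± 0.660 and 3.14 ± 0.724 CPM and not called (log2 fold change 0.24, SE 0.29; adjusted p by edgeR 0.579).

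**Figure D5:**
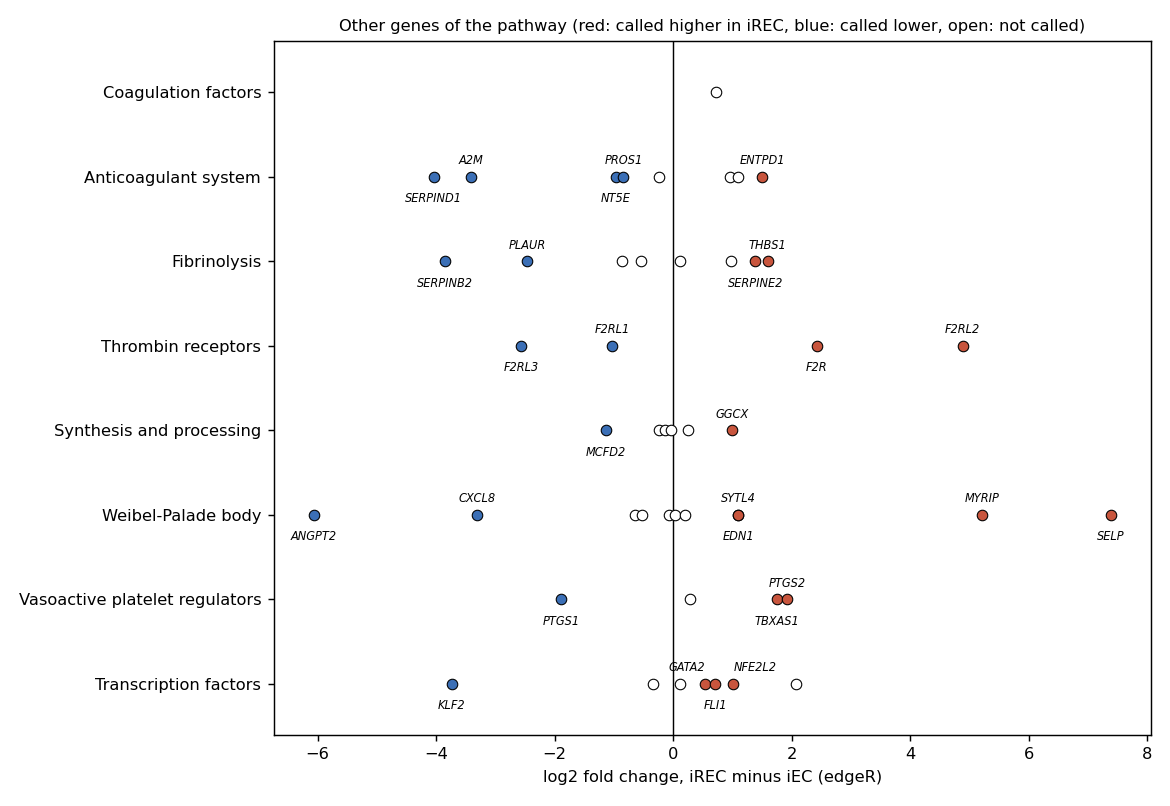
log2 fold changes (iREC minus iEC, edgeR) of the tested genes of the 8 pathway lists that are reported here, 1 point per gene, red where called higher, blue where called lower and open where not called. Called genes lie on both sides of 0 in 7 of the lists, from ANGPT2 at -6.07 to SELP at 7.39, and coagulation factors have F12 alone.

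The genes most like each member were sought among 9525 protein-coding genes by the root mean square difference of log2 CPM profiles over the 8 samples, each centred on its mean. For PLAU the nearest was RAC2, at 0.27 log2 units, against a spread of PLAU itself of 2.24, and RAC2 went from 168 to 13.02 CPM. For PLAT the nearest were CPT1A (0.43), UAP1L1 (0.45) and SLC7A11 (0.45), against a spread of 1.65. TFPI was nearest to GALNT14 (0.21), GATA3 (0.25) and GIMAP1 (0.25), against a spread of 1.16, and VWF to JAK3 (0.35), LRRC32 (0.42) and PDCD4 (0.43), against 0.97. F3 had no profile closer than BIRC3 (0.49), against a spread of 1.21. The nearest genes were ATP11A for THBD (0.14, spread 0.44), CARD6 for PROCR (0.24, spread 0.80), PARD3B for TFPI2 (0.26, spread 0.63) and RFX1 for F8 (0.14, spread 0.30). The profiles share the same 8 libraries and the difference between the groups.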

How the data were processed

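The authors deposited 1 table covering 30386 genes with, per the file headers, a read count for each gene and sample, FPKM, log2 fold changes and p-values. In the deposited normalized signal, each sample's counts were divided by a single size factor, and the deposited FPKM follows the usual definition from these values and the gene length, with 1 common library size (15383200 counts) for all samples. Per the submitters' processing notes, fastp, HISAT2 2.0.5 and hg38 were used; the counting program and its strand setting are not given in the sources used here. All 30386 gene identifiers and positions matched GENCODE release 29 (GRCh38).

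Everything else was computed from the counts: filterByExpr (15330 genes kept), TMM, and edgeR 4.0.16 quasi-likelihood tests with group as the only term and Benjamini-Hochberg adjustment over all genes tested. Standard errors come from the coefficient and its F statistic. The fit was tested on simulated data. CPM means and SDs use 4 samples per group; likeness used log2 CPM with a prior count of 2. FPKM values are the authors' deposited ones and were not tested; the deposited log2 fold changes and p-values were not used. No other columns of sample values were present.

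The members and lists were chosen with earlier results of these data known. The rule for named genes took the 9 members, 12 fixed genes and, from each pathway list, up to 3 called genes in each direction with at least 1 CPM in a group; some of these are not reported here. All other genes given with values, such as KRT8, CDH1, LMAN1, F12, TTR, APOB, PROC and the endothelial and barrier markers, were named after their values were seen. Other settings tried were scaling by upper quartile, by library size only or by DESeq2 size factors, a stricter filter (at least 1 CPM in every sample of either group, with a mean count of 50) or no filter, DESeq2 1.42.0, limma-voom (limma 3.58.1), another form of the quasi-likelihood fit, a replicate block and each sample left out in turn.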

Additional observations from a re-analysis of the deposited data

Results flagged for a closer look

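Within each group of 4, Dixon's test at the 95% level asked whether the highest or lowest log2 CPM stood apart. Over 86 such groups, of the members and the other named genes, 4 passed, and about 4.3 would by chance. None of the 4 was one of the 9 members. A2M was at 5.25 in iREC F, where the rest of iREC was at 4.02 to 4.22. PECAM1 was at 8.95 in iREC F, against 9.67 to 9.74. F2RL3 was at 1.36 in iEC F, against 2.73 to 2.96 in the other iEC samples. PTGS1 was at -1.35 in iREC C, against 0.43 to 0.65 in the other iREC samples.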

How the results depend on the processing

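Every member kept its direction in all fits that tested it. The count of called members was 5, and ran from 5 to 6 over the 9 alternatives with all samples and from 4 to 7 when 1 sample was left out. Members called as higher ran from 2 to 4 over the fits without 1 sample, with 4 without iREC C, where VWF and F3 joined TFPI and PLAT. The 29 calls among the other pathway genes ran from 22 to 34 over all alternatives. Over all genes, the 3829 calls ran from 3281 to 4954 (DESeq2) with all samples and from 2660 to 4214 without 1 sample; those lower in iREC, 1798, ran from 1171 (without iREC D) to 1991 in the latter. With the replicate block 3334 genes and 5 members were called. The block was no more than an alternative: deviations from the group means correlated at 0.17, -0.079, 0.029 and 0.25 between samples lettered C, D, E and F. In 2 of 4 iEC samples the best match had another letter, and of the iREC samples only F matched its own letter best. F8 was not tested under the stricter filter. The lowest counts per sample among the members were those of F3, 8 to 171, and F8, 28 to 56, and whether depth or the spread between samples limits their tests was not tested.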

Other observations

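Genes that act on platelets and vessel tone were mixed: of 4 tested, 2 were higher, 1 lower and 1, NOS3, not called (median log2 fold change 1.02). PTGS2, the inducible cyclooxygenase, rose from 3.86 ± 1.4 to 14.6 ± 8.47 CPM, and TBXAS1, thromboxane synthase, from 4.84 ± 1.11 to 16.4 ± 6.87 CPM (means ± SD of 4 samples; by edgeR, adjusted p 0.00948 and 0.00486). PTGS1, the constitutive cyclooxygenase, fell from 3.87 ± 2.38 to 1.03 ± 0.526 CPM (adjusted p by edgeR 0.0491), but this call held in only 1 of the 8 fits without a sample, that without iEC D. The PTGS1 call was also lost in 4 of the 8 alternatives that kept all samples and tested it. Its adjusted p over the alternatives reached 0.130.

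Of 7 transcription factors with known roles in these genes or in endothelium, 3 were higher, 1 lower and 3 not called (median log2 fold change 0.54). KLF2, a flow-induced factor known to raise THBD, had 14.1, 8.15, 35.0 and 19.6 CPM in iEC C to F in order, then 1.37, 1.499, 1.04 and 1.83 CPM in the same order of iREC. It fell, with -3.74 (SE 0.46) as its log2 fold change and an adjusted p of 0.000493 by edgeR. Its relative KLF4 was 0.390 ± 0.429 and 1.63 ± 0.715 CPM and not called (adjusted p by edgeR 0.0811), although DESeq2 (0.0407), limma-voom (0.0450), the other form of the quasi-likelihood fit (0.0394) and edgeR without iEC F (0.0256) called it. NFE2L2, a regulator of antioxidant genes, rose from 56.8 ± 5.19 to 115 ± 21.5 CPM and GATA2 from 33.3 ± 3.55 to 48.3 ± 3.39 CPM (means ± SD of 4 samples; by edgeR, adjusted p 0.00132 and 0.0109). ERG, at 199 ± 16.9 and 216 ± 59.2 CPM, was not called (adjusted p by edgeR 0.713). FLI1 rose from 201 ± 46.8 to 327 ± 73.3 CPM (adjusted p by edgeR 0.0393), a call lost under library size only (0.0508) and without iEC C (0.0743), iEC E (0.0988), iEC F (0.0877), iREC C (0.0841), iREC D (0.0940) or iREC E (0.0996).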
